A study of Mus musculus with 8 samples.

Results

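The interferon-stimulated genes described here are 39 genes that are known to be switched on in cells exposed to interferon, and the rule names them by symbol. Of the 39 genes, 38 had transcripts in the table analysed and 1, a transcription factor, is not analysed here. Transcript values were summed per gene, and 36 of the 38 genes passed the filter of a mean of at least 1 FPKM (sequenced fragments relative to the length of the transcript and to all mapped fragments) over all mice, out of 16105 genes that passed among 38374. Following common usage, 30 of the 36 genes were grouped as targets of type I interferon and 6 as targets of interferon-gamma (*Irf1*, *Gbp2*, *Gbp3*, *Gbp7*, *Igtp* and *Irgm1*), although many genes of either class respond to both kinds of interferon.

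The values come from sequenced poly(A) RNA of inguinal white adipose tissue (ING WAT), the fat depot under the skin of the groin, of C57BL/6j mice without a transgene. Mice m1, m49, m138 and m145 (PN21, n = 4) were killed at weaning on postnatal day 21, and mice m35, m106, m114 and m125 (PN98, n = 4) as young adults on postnatal day 98, so that each value is from 1 animal. RNA of the Y-linked gene *Ddx3y* was present in all 8 mice (18.1 to 25.9 FPKM), and *Xist*, the RNA that silences an X chromosome in females, did not exceed 0.832 FPKM. The paper describes the diet AIN93G up to an age between PN21 and PN98, followed by the control diet AIN93M or a western style diet. Diet therefore differed between the ages in either case, and diet and age cannot be told apart. The sources used here do not say which of the later diets the sequenced PN98 mice had received.

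Interferons are secreted when a cell detects foreign nucleic acid or when lymphocytes are activated. Type I interferons act through the receptor chains IFNAR1 and IFNAR2 and the kinases JAK1 and TYK2 on a complex that contains STAT2 and IRF9 and binds the interferon-stimulated response element, whereas interferon-gamma acts through IFNGR1 and IFNGR2 and leads to binding at the gamma-activated sequence. In adipose tissue both immune cells and adipocytes can respond to interferon, and part of these genes is also expressed without infection.

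Motifs of both DNA elements can be read in promoters of part of the genes, and short stretches with a match are shown. RefSeq promoters of GRCm38.p6, from 250 bases before to 50 bases after a start site, were found for 28 of the 38 genes; *Oas2*, *Mx1*, *Mx2*, *Usp18*, *Parp9*, *Parp14*, *Dhx58*, *Zbp1*, *Rtp4* and *Iigp1* had no entry. The motif of GAAA, any 2 bases and GAAA again, on either strand, stood in the promoter of 16 of the 28 genes (57.1%), against 3.99% of 27025 genes with a promoter. The motif TTCNNNGAA, where N is any base and which reads the same on both strands, stood in 9 of the 28 (32.1%), against 9.55% of all genes. At least 1 of the 2 motifs stood in 20 of the 28 (71.4%), against 12.9% of all genes, and the rest of the 28 held neither. Of the 6 interferon-gamma targets, 5 held the first motif and 3 the second, and of 22 type I targets with a promoter 11 and 6 did. The 7 stretches of 60 bases below were chosen from promoters with a match. They lie before the start site and are written from 5′ to 3′ on the strand of the gene. Capitals mark matches of either motif, and matches may overlap.
*Isg15* (chr4:156200856-156200915, minus strand): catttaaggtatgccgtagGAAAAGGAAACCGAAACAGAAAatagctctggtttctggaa
*Bst2* (chr8:71537565-71537624, minus strand): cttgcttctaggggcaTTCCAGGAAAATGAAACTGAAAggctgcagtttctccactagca
*Ifit1* (chr19:34640769-34640828, plus strand): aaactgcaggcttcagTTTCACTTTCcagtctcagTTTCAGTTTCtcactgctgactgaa
*Gbp2* (chr3:142620579-142620638, plus strand): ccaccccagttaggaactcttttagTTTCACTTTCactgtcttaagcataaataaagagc
*Gbp7* (chr3:142530214-142530273, plus strand): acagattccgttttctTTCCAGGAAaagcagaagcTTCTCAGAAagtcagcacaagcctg
*Igtp* (chr11:58199485-58199544, plus strand): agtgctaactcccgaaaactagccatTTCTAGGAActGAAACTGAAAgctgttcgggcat
*Irf1* (chr11:53769898-53769957, plus strand): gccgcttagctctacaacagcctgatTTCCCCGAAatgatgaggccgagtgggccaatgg
In *Isg15* 3 overlapping matches of the first motif follow each other, in *Bst2* the 2 motifs overlap, and in *Igtp* they stand 2 bases apart. A match describes these letters only and was not tested for binding.

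Some mice differed from their age group in ways that touch these genes, and the values are given first. The 14 lymphocyte markers examined, such as *Cd3e* of T cells and *Cd79a* of B cells, summed to 520 to 1270 FPKM at PN21 and to 22.3 to 1127 FPKM at PN98. None of the 14 was at 0 in any mouse. PN21 mouse m138 had the highest sum, PN98 mouse m35 came next with 1127 FPKM and the other PN98 mice did not exceed 217 FPKM. The 9 macrophage markers summed to 666 to 1159 FPKM at PN21 and 355 to 1187 FPKM at PN98, and the lowest sum was in PN98 mouse m125. The 6 markers of natural killer cells, a source of interferon-gamma, summed to 21.1 FPKM in m138 and to 3.94 to 15.1 FPKM in the other mice. Markers of dendritic cells, of which 8 had a row, summed to 19.2 to 38.0 FPKM at PN21 and 6.52 to 38.5 FPKM at PN98, and *Flt3* was at 0 in at least 1 mouse. Muscle RNA also differed, since 7 muscle markers summed to 408 FPKM in m138 and to 8.11 to 67.9 FPKM in the other PN21 mice, against 400.1 to 2553 FPKM at PN98, where *Actn3* and *Atp2a1* of this list were called as higher. The 7 adipocyte markers summed to 13213 to 24197 FPKM at PN21 and 35420 to 45415 FPKM at PN98. Of these, 3 were called as higher, and 1, *Pparg*, had a log2 fold change below 0 (−0.26). *Adipoq*, which encodes adiponectin and was 1 of the 3, measured 817 to 1279 FPKM at PN21 and 2512 to 3653 FPKM at PN98. In whole tissue, fewer cells of a type and less RNA per cell cannot be told apart. The values used here are FPKM and not read counts, hence depth and counting error are unknown.

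None of the 36 interferon-stimulated genes changed between PN21 and PN98 with an adjusted p under 0.05 (limma on log2(FPKM + 1), Benjamini-Hochberg over all genes). Among all genes tested the share was 5.25% (2.34% higher and 2.91% lower). A list of 36 genes can hold no call at that share. Of the 36 genes, 7 had an unadjusted p under 0.05, 1 higher and 6 lower at PN98, and among all genes this share was 27.2% (8.18% higher and 19.0% lower). The count of 7 fell to 1 without m145 or m125, to 3 without m138, m106 or m114, and to 4 without m49. It stayed at 7 without m1 and was 8 without m35. With median of ratios scaling it was 5, and it was 1 when mice were scaled to nuclear genes. Calls over all genes moved too. Without a single mouse, the share with an adjusted p under 0.05 ranged from 1.3% (without m106) to 22.1% (without m35). Values of PN21 and PN98 mice overlapped in each of the 36, and they did not overlap in 16.1% of all genes. The lowest adjusted p among the 36 was 0.137, for *Isg15*. The log2 fold change, as PN98 minus PN21, was below 0 in 26 genes and above 0 in 10, with a median of −0.21 that equalled the median of all genes tested, of which 67.0% were below 0. At the level of single transcripts, fitted by limma to log2(FPKM) with no pseudocount added, 52 transcripts of 31 of these genes were tested and none had an adjusted p under 0.05 (lowest 0.0743), against 1.34% of all transcripts. Without adjustment, 10 of the 52 had p under 0.05, 3 higher and 7 lower at PN98, against 21.7% of all transcripts. With arrayWeights, which gives mice of larger deviation less weight, 28.8% of all genes and 2 of the 36 (*Bst2* and *Ifi35*, both lower at PN98) were called. With median of ratios scaling *Gbp2* was called as higher at PN98, while 7.54% of all genes were called. Without PN98 mouse m35 *Trim25* was called as higher at PN98, while 22.1% of all genes were called.

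**Figure D1:**
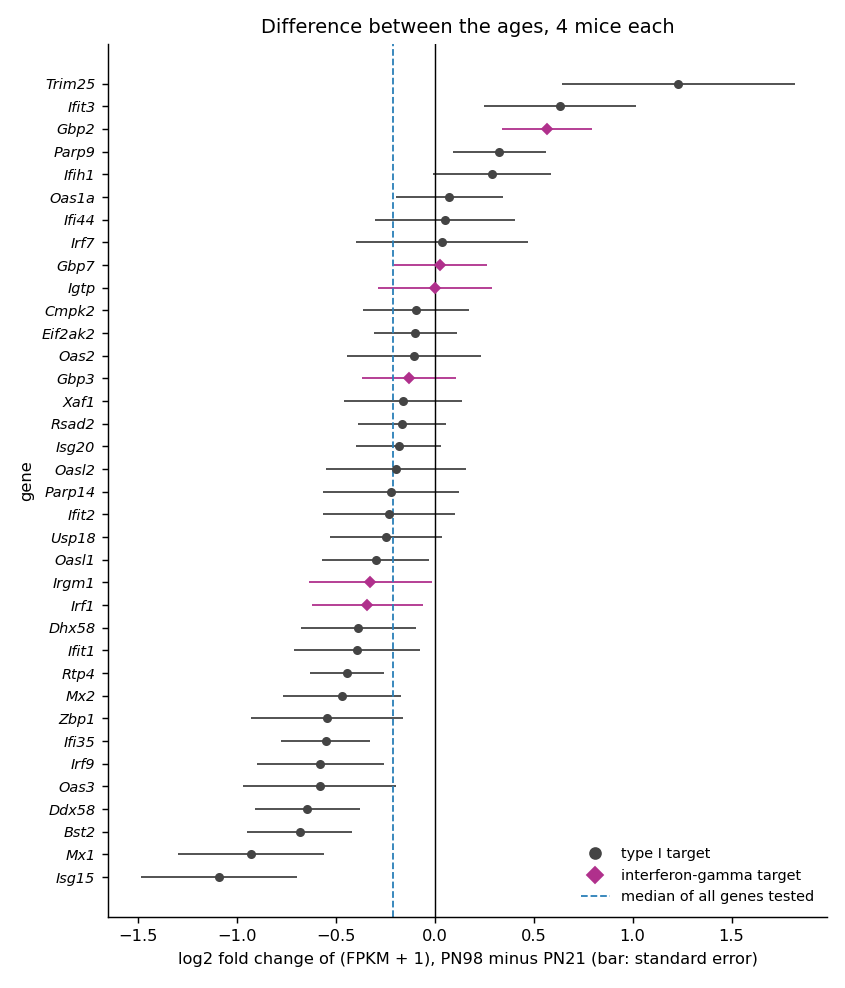
Difference in log2(FPKM + 1), PN98 minus PN21, of the 36 interferon-stimulated genes tested (x axis; bars are the standard error from limma, 4 mice per age), with genes in rows. Values run from −1.09 (*Isg15*) to 1.23 (*Trim25*), circles are 30 type I targets, diamonds are 6 interferon-gamma targets, and the dashed line is the median of all genes tested, −0.21.

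The type I targets had a median log2 fold change of −0.23 and the interferon-gamma targets of −0.07, and 23 of 30 type I targets and 3 of 6 interferon-gamma targets were below 0. Averaged over their genes as log2(FPKM + 1), the type I targets stood at 3.33 ± 0.44 at PN21 and 3.11 ± 0.27 at PN98 (SD, n = 4 each). The interferon-gamma targets stood at 4.29 ± 0.36 and 4.26 ± 0.33. The difference between the ages, −0.22 and −0.03 on the log2 scale, was smaller than 1 SD between mice of an age in either class, and the mean over all genes tested differed by −0.24. The sign of the medians depended on the scaling of the mice, which also moved the median of all genes, and on a single mouse. With median of ratios scaling, which moved the median of all genes from −0.21 to −0.03, the medians were −0.05 for type I and 0.14 for interferon-gamma targets. When mice were scaled to nuclear genes they were 0.002 and 0.19, with 0.02 for all genes. Without PN21 mouse m138 they were 0.02 and 0.13, with −0.19 for all genes.

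The values of single mice showed where the spread came from. PN21 mouse m138 held the highest value of all 8 mice for 28 of the 36 genes (77.8%), whereas it held the highest value for 22.2% of all genes tested. Among the 4 PN21 mice it was highest for 32 of 36 genes, against 34.4% of all genes. In all 36 genes m138 lay above the median of the other 3 PN21 mice, in 30 of them by at least 1.5-fold on the FPKM + 1 scale, which was the case for 13.9% of all genes. The median of this fold was 1.83 over the 36 genes (range 1.18 to 3.16), 1.88 over the type I targets, 1.67 over the interferon-gamma targets and 1.05 over all genes. With median of ratios scaling m138 was highest for 27 of the 36 genes, against 16.6% of all genes. With scaling to nuclear genes it was highest for 29 of the 36, against 23.8% of all genes. This mouse was singled out after its values were seen, so the counts are a description of 1 animal and carry no test.

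At the other end, PN98 mouse m125 held the lowest value of all mice for 23 of the 36 genes (63.9%), against 38.1% of all genes. With median of ratios scaling both shares were lower, 12 of the 36 genes (33.3%) against 20.95% of all genes. Within PN98, mouse m35 was highest for 24 of the 36 genes (66.7%), against 51.5% of all genes. Lymphocyte markers also differed between these mice. Their mean of log2(FPKM + 1) was 6.10 in m138, the highest, and 1.17 in m125, the lowest, and m138 held the highest value for 8 of the 14 markers. In m35 the lymphocyte level was 5.89, and in m106 and m114 of the same age it was 3.65 and 2.08. The interferon-stimulated genes of m35 stood at 1.34-fold of the median of the other PN98 mice, with 1.21-fold over all genes. Macrophage markers were not highest in m138 for any of 9 genes. The part of these cell types in the result was not tested.

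**Figure D2:**
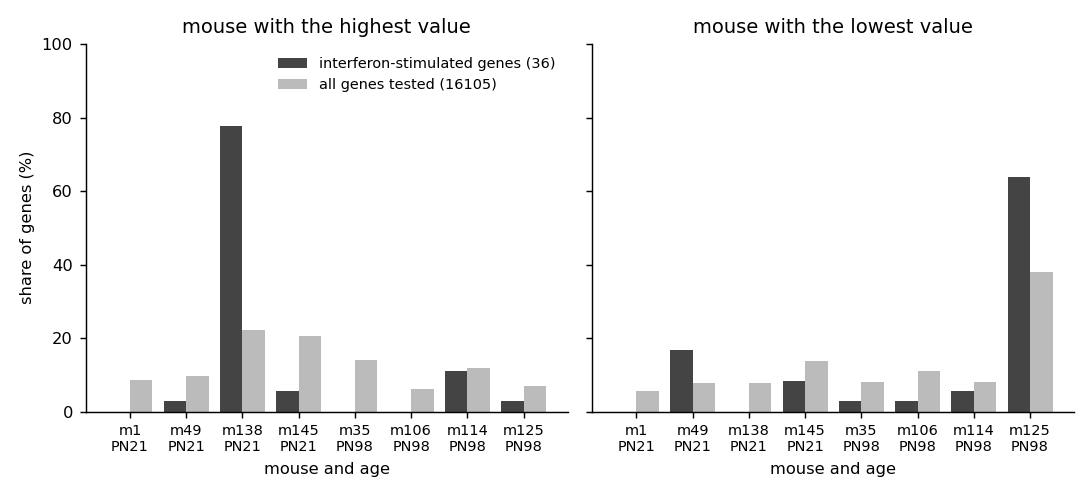
Share of genes in percent (y axis) for which each mouse (x axis, with its age) held the highest value (left) or the lowest value (right) of all 8 mice, for 36 interferon-stimulated genes (dark bars) and 16105 genes tested (light bars). PN21 mouse m138 was highest for 77.8% of the interferon-stimulated genes and PN98 mouse m125 was lowest for 63.9%.

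**Figure D3:**
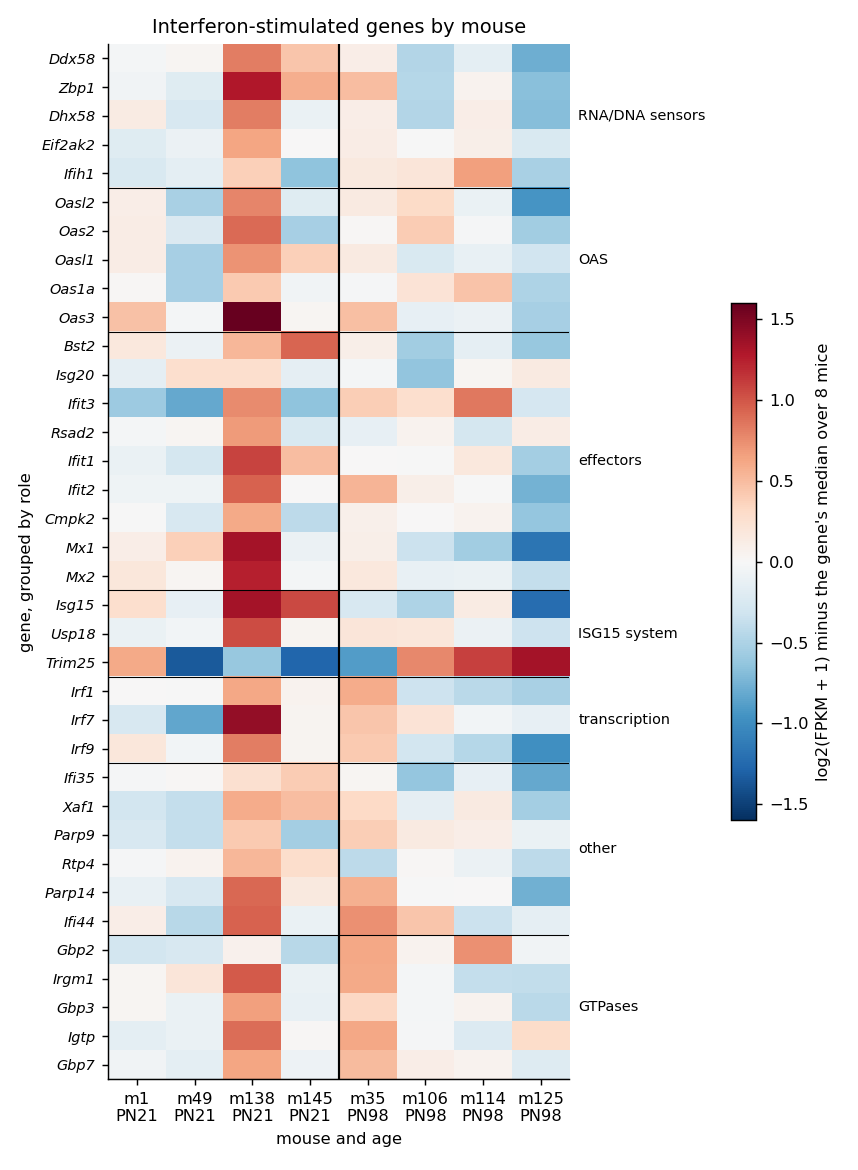
Log2(FPKM + 1) minus the gene's median over 8 mice (colour scale; red is above, blue below) of 36 interferon-stimulated genes in rows, grouped by role, with mice in columns, PN21 left and PN98 right of the line. The column of m138 is above the median for all genes but *Trim25*, and that of m125 is below it for most.

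**Figure D4:**
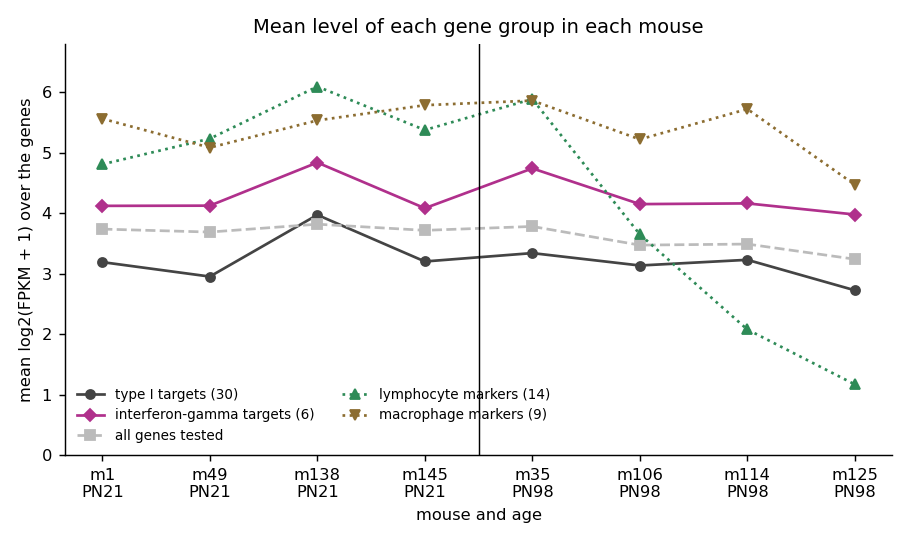
Log2(FPKM + 1), averaged over the genes within a group, (y axis) in each mouse (x axis, with its age) for the type I and interferon-gamma targets, all genes tested, and 14 lymphocyte and 9 macrophage markers; lines join mice only to guide the eye. The type I targets stand at 3.97 in m138 and at 2.73 to 3.34 in the other mice, and the lymphocyte markers fall between 1.17 and 6.10.

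The genes that carry the pathway's signal come first. *Irf7*, a transcription factor that amplifies the type I response, measured 22.4, 14.8, 73.1 and 27.9 FPKM in m1, m49, m138 and m145 of PN21, and 37.4, 31.6, 26.3 and 24.7 FPKM in m35, m106, m114 and m125 of PN98, and this order of mice is kept for all genes below. The value in m138 was 1.96 times the highest value of any other mouse, whereas the other PN21 mice lay at or below the middle of the PN98 range. *Irf9*, the DNA-binding part of the type I complex, measured 21.9, 18.6, 34.9 and 20.0 FPKM at PN21 and 26.1, 15.6, 13.8 and 9.28 FPKM at PN98 (mean 23.9 ± 7.5 against 16.2 ± 7.1, SD, n = 4; log2 fold change −0.58, standard error 0.32, adjusted p = 0.267 with limma). The ages overlapped, since m35 exceeded 3 of the 4 PN21 mice. *Irf1*, a factor induced by interferon-gamma and the most abundant of this group, measured 41.7, 41.2, 64.3 and 43.3 FPKM at PN21 and 63.2, 32.7, 30.5 and 28.7 FPKM at PN98 (log2 fold change −0.34, standard error 0.28, adjusted p = 0.450). Here m138 and m35 stood together above all other mice, each far from the rest of its age group. *Stat2*, which encodes a partner of IRF9 in the type I complex, was listed at no more than 0.0236 FPKM in any mouse, through 1 transcript, and was left out by the filter.

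Of the 5 sensors, none was called, 1 had an unadjusted p under 0.05, and 4 of 5 log2 fold changes were below 0 (median −0.39). For this group and those below, the values over all genes tested serve for comparison. Of all genes, 5.25% were called, 27.2% had an unadjusted p under 0.05, and 67.0% were below 0 (median −0.21). *Ddx58*, which encodes the RNA sensor RIG-I, had the lowest p and the highest mean level of this group, with 14.8, 15.6, 27.6 and 21.1 FPKM at PN21 and 16.5, 10.7, 13.5 and 8.42 FPKM at PN98 (log2 fold change −0.64, standard error 0.26, adjusted p = 0.168). Only m35 among the PN98 mice reached into the PN21 range. *Zbp1*, a sensor of unusually twisted nucleic acid, *Dhx58*, *Ifih1*, which encodes the RNA sensor MDA5, and *Eif2ak2*, the RNA-activated kinase that stops translation, ranged from 4.23 to 27.6 FPKM over all mice. All but *Ifih1* were highest in m138.

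The oligoadenylate synthetases make a small messenger that activates an RNA-degrading enzyme. None of the 5 was called or had an unadjusted p under 0.05, and their median log2 fold change was −0.20. *Oas3*, with the lowest p of the group, measured 1.33, 0.659, 4.10 and 0.727 FPKM at PN21 and 1.36, 0.548, 0.588 and 0.171 FPKM at PN98 (log2 fold change −0.58, standard error 0.39, adjusted p = 0.346). The value in m138 was 3.01 times the next highest. *Oasl2*, the most abundant, measured 14.2, 8.88, 23.3 and 11.3 FPKM at PN21 and 14.5, 16.5, 12.1 and 6.36 FPKM at PN98, and its log2 fold change, −0.20 with a standard error of 0.35 (adjusted p = 0.737), turned to 0.05 without m138 and to 0.07 without m125. *Oas1a*, *Oas2* and *Oasl1* lay between 1.95 and 7.17 FPKM. *Oas1a* has close copies beside it in the genome, so its value is uncertain.

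Of the 9 antiviral effectors, none was called, 2 had an unadjusted p under 0.05 and the median log2 fold change was −0.23. *Bst2*, which encodes tetherin, a membrane protein that holds back budding virus, was the most abundant of all 36 genes. It measured 121, 100.4, 155 and 206 FPKM at PN21 and 115, 72.9, 97.6 and 70.3 FPKM at PN98 (mean 146 ± 46 against 89.0 ± 21.3, SD, n = 4; log2 fold change −0.68, standard error 0.27, adjusted p = 0.154). PN98 mouse m35 lay within the PN21 range, and *Bst2* was 1 of only 2 genes with the highest value in m145. *Mx1*, a GTPase that blocks viral particles, measured 2.38, 3.07, 6.92 and 1.95 FPKM at PN21 and 2.34, 1.47, 1.13 and 0.389 FPKM at PN98 (log2 fold change −0.93, standard error 0.37, adjusted p = 0.159). *Ifit3*, of the family that binds viral RNA, had the highest log2 fold change of the effectors, 0.63 (standard error 0.38, adjusted p = 0.308), with 7.34, 6.11, 20.1 and 6.98 FPKM at PN21 and 15.4, 14.1, 21.3 and 9.35 FPKM at PN98. Apart from m138, all PN21 mice lay below all PN98 mice, whereas its neighbours *Ifit1* and *Ifit2* had log2 fold changes below 0; reads of *Ifit3* can be shared with its near copy *Ifit3b*. *Mx2*, *Rsad2*, *Isg20* and *Cmpk2* lay between 0.508 and 22.1 FPKM. *Isg20* held transcripts with opposite differences. ENSMUST00000120331 was lower at PN98 (log2 fold change of FPKM −8.45, adjusted p = 0.151 with limma), with PN98 values of 0.000284 to 1.24 FPKM. ENSMUST00000038142 was higher (0.70, adjusted p = 0.227 with limma).

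The ISG15 system attaches a small ubiquitin-like protein to others. *Isg15* itself (ENSMUSG00000035692, mm10 chr4:156199424-156200818) had the lowest p of all 36 genes, with 21.9, 16.3, 46.8 and 38.3 FPKM at PN21 and 14.9, 12.5, 19.7 and 7.15 FPKM at PN98 (mean 30.8 ± 14.2 against 13.6 ± 5.2, SD, n = 4; log2 fold change −1.09, standard error 0.40, adjusted p = 0.137 with limma). The ages overlapped only through m49 and m114. The exact permutation test (two-sided, all 70 divisions of the mice) gave p = 0.0571 for *Isg15*, where the smallest possible value is 0.0286. *Usp18*, the protease that removes ISG15, measured 12.4 FPKM in m138 and 4.14 to 6.40 FPKM in all other mice. *Trim25*, a ligase that acts on RIG-I, went the other way, with 3.13, 0.0640, 0.778 and 0.126 FPKM at PN21 and 0.462, 3.61, 4.80 and 5.81 FPKM at PN98 (log2 fold change 1.23, standard error 0.59, adjusted p = 0.212). This split rested on transcript ENSMUST00000000284, which was listed at 2.84 FPKM in m1, 2.95 in m106, 4.42 in m114 and 5.40 in m125 and at no more than 0.00957 FPKM in the other mice. The mice with and without this transcript did not divide by age.

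**Figure D5:**
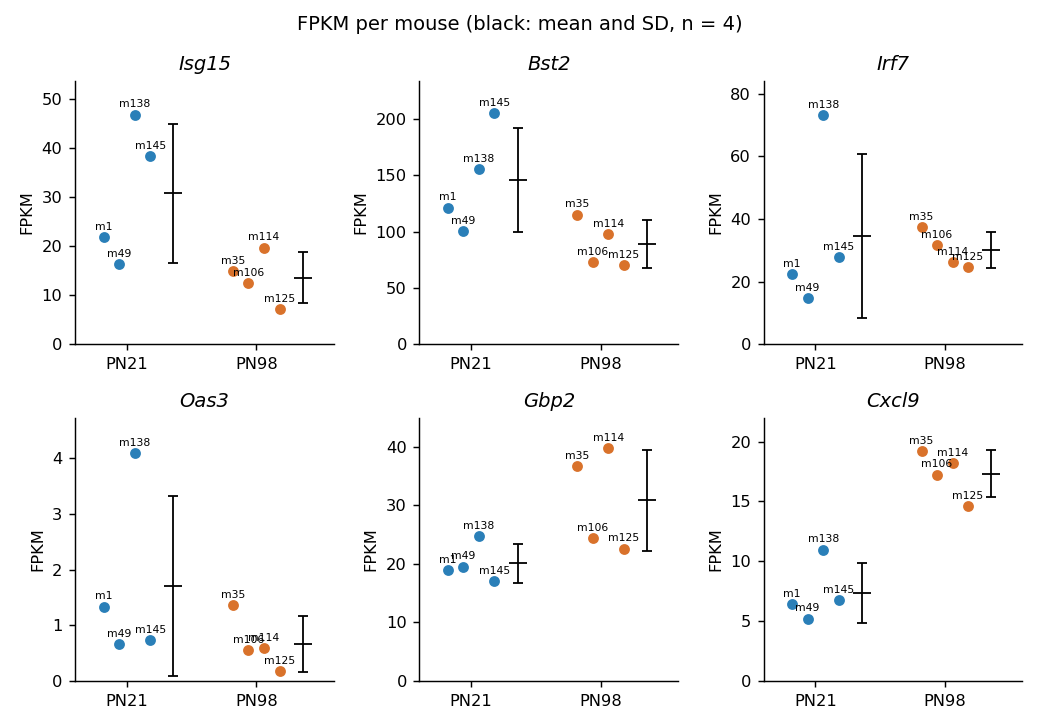
FPKM per mouse (y axes, from 0) of *Isg15*, *Bst2*, *Irf7*, *Oas3*, *Gbp2* and *Cxcl9* at PN21 (blue) and PN98 (orange), each point 1 mouse with its number, black marks the mean and SD (n = 4). The ages overlap in all panels but that of *Cxcl9*, and m138 stands highest for *Isg15*, *Irf7* and *Oas3*.

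Of 6 further type I targets, none was called and 2 had an unadjusted p under 0.05. *Ifi35*, a regulator that moves to the nucleus with its partner NMI, was the most abundant, with 35.4, 36.4, 43.2 and 48.1 FPKM at PN21 and 36.7, 23.1, 32.6 and 20.0 FPKM at PN98 (log2 fold change −0.55, standard error 0.22, adjusted p = 0.166). Only m35 lay within the PN21 range. *Rtp4*, a chaperone of receptors, measured 11.9, 12.7, 18.0 and 14.9 FPKM at PN21 and 8.79, 12.3, 11.3 and 8.80 FPKM at PN98 (log2 fold change −0.44, standard error 0.19, adjusted p = 0.172). Unlike any other of the 36 genes, *Rtp4* was lowest in m35. *Xaf1*, which promotes cell death, *Parp9* and *Parp14*, which belong to the ADP-ribosyltransferases, and *Ifi44* were highest in m138 as well and ranged from 1.08 to 37.1 FPKM.

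The GTPases of the GBP and IRG families attack the vacuoles of intracellular microbes and are classic targets of interferon-gamma. *Gbp2* was the only 1 of the 36 genes with an unadjusted p under 0.05 and a higher value at PN98, with 19.0, 19.6, 24.8 and 17.0 FPKM at PN21 and 36.7, 24.4, 39.8 and 22.6 FPKM at PN98 (mean 20.1 ± 3.3 against 30.9 ± 8.6, SD, n = 4; log2 fold change 0.57, standard error 0.23, adjusted p = 0.160). The overlap came from m138, which exceeded m106 and m125, and the exact permutation p was 0.0857. With median of ratios scaling the adjusted p of *Gbp2* was 0.0388, and over all settings tried it ranged from there to 0.310. *Gbp3*, *Gbp7*, *Igtp* and *Irgm1* measured between 6.79 and 31.8 FPKM, were highest in m138, and had log2 fold changes from −0.33 to 0.03. *Gbp3* held 2 transcripts with opposite differences, since ENSMUST00000106222 was lower at PN98 (log2 fold change of FPKM −1.20, adjusted p = 0.0743) and ENSMUST00000029935 was higher (6.25, adjusted p = 0.186), the latter with PN21 values of 0.000336 to 0.441 FPKM. Genes of both families have near copies, and *Igtp* overlaps *Irgm2*, so that the split of reads between them is uncertain. *Iigp1* of the same family did not exceed 0.428 FPKM and was left out by the filter.

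Of the interferons themselves, none of 21 genes passed the filter. In all mice 15 of the 21 were listed at 0, and the highest value of any was 0.465 FPKM for *Ifng*, the gene of interferon-gamma, in m138. *Ifng* measured 0.134, 0.241, 0.465 and 0.206 FPKM at PN21 and 0.358, 0.158, 0.116 and 0.0295 FPKM at PN98. These values were too low for a comparison between the ages or between single mice.

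The receptors were expressed in all mice, and none of 5 tested was called. *Ifnar1* ranged from 9.78 to 24.8 FPKM, *Ifnar2* from 69.4 to 109, *Ifngr1* from 62.8 to 135 and *Ifngr2* from 12.1 to 29.4 FPKM. *Ifngr2*, the signalling chain of the interferon-gamma receptor, had the lowest p of them, with 23.1, 20.8, 29.4 and 22.6 FPKM at PN21 and 25.4, 13.0, 12.1 and 12.7 FPKM at PN98 (log2 fold change −0.63, standard error 0.25, adjusted p = 0.162). *Ifnlr1*, which epithelial cells use for type III interferon, did not exceed 0.438 FPKM, whereas *Il10rb*, the other chain of that receptor, ranged from 16.5 to 35.6 FPKM.

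None of the genes for signal transduction (5 tested, median log2 fold change −0.41), inhibition (7, −0.76), detection of nucleic acid (16, −0.61) or presentation of antigen on class I molecules (10, −0.40) was called. Over all genes tested 5.25% were called and the median was −0.21, so lists this short can hold no call at that share. The genes with the lowest p in these lists were *Tyk2* (adjusted p = 0.326), the phosphatase gene *Ptpn2* (adjusted p = 0.0785), the adaptor gene *Ticam1* (adjusted p = 0.0537) and *B2m*, the constant chain of class I molecules (adjusted p = 0.0816), all from limma. *B2m* had higher values at PN98, with 1038, 1251, 1281 and 1495 FPKM at PN21 and 2903, 1879, 2845 and 1620 FPKM at PN98, whereas *Ptpn2* and *Ticam1* had lower ones.

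Among 71 further interferon-responsive genes, 68 were tested and 1 was called, the chemokine gene *Cxcl9*, which draws activated T cells and is induced mainly by interferon-gamma. *Cxcl9* measured 6.39, 5.21, 11.0 and 6.79 FPKM at PN21 and 19.2, 17.2, 18.2 and 14.6 FPKM at PN98 (log2 fold change 1.17, standard error 0.22, adjusted p = 0.0252 with limma). All PN98 mice lay above all PN21 mice, and m138 was the highest of the PN21 mice. The adjusted p of *Cxcl9* ranged from 0.00472 to 0.0816 over all settings, and it missed 0.05 without m1, m49, m145, m106 or m114 and at the level of transcripts. Of the 68 genes, 48 had a log2 fold change below 0 (median −0.33), and 38 were highest in m138. Among all genes tested, 5.25% were called, 67.0% were below 0 (median −0.21) and 22.2% were highest in m138.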

How the data were processed

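Poly(A) RNA of ING WAT of 4 PN21 and 4 PN98 mice was sequenced. Reads were mapped by the authors with STAR 2.3.0 to mm10, and the FPKM deposited for each transcript came from Cufflinks 2.1.1. In the deposited table the decimal mark was lost in 40426 of 91969 transcripts; it was restored from the authors' standard deviation, average and score, which also cover 2 values with no column of their own. A single reading was found for 40409 transcripts, 17 were left out, and 5019 of 5019 restored transcripts that also stand in the authors' contrast table had equal values in all 8 mice. The fold changes and p-values of that contrast table were not used.

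FPKM was summed over the transcripts of each gene (GENCODE vM21), genes with a mean of at least 1 FPKM were kept, and log2(FPKM + 1) was compared with limma 3.58.1 in R 4.3.3 (eBayes defaults, Benjamini-Hochberg over all genes). A fold change on this scale understates the change of low genes. The fit was tested on simulated data. The members, gene lists and tests were chosen with earlier results of these data known. Named with a value in every mouse were, in each role group, the gene with the lowest p and that with the highest mean FPKM; *Irf7*, *Ifit3*, *Trim25*, *Mx1*, *Rtp4*, *Ifng* and the mice m138 and m125 were added after their values were seen. Replicates are separate mice. Alternatives changed the pseudocount, filter, scaling, weights, variance model, feature and mice. Coordinates are mm10, and promoter sequences are from RefSeq (GRCm38.p6).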

Additional observations from a re-analysis of the deposited data

Results flagged for a closer look

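In 9 of 72 age groups of 4 mice over the 36 genes, 1 mouse lay far from the others by Dixon's ratio, the gap to the nearest mouse divided by the whole range of log2(FPKM + 1), above its critical value for 4 samples. Chance alone gives about 5% of groups, and over all genes tested 7.36% of age groups passed the limit. The 72 groups come from the same mice and are not independent, so these shares carry no test. In 7 of these groups the mouse was PN21 mouse m138, on the high side. The ratios were 0.917 for *Ifit2*, 0.853 for *Ifit3*, 0.831 for *Mx2*, 0.876 for *Usp18*, 0.889 for *Irf1*, 0.878 for *Gbp7* and 0.833 for *Igtp*. Over all genes m138 stood so far above the other PN21 mice in 2.05%. The mean level of the interferon-gamma targets at PN21 passed the limit as well, with a ratio of 0.944 and m138 on the high side. At PN98, *Irf1* was high in m35 (ratio 0.837) and *Cmpk2*, a nucleotide kinase gene, was low in m125 (ratio 0.897).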

How the results depend on the processing

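None of the 36 interferon-stimulated genes was called in 15 of 18 alternatives. Median of ratios scaling called 1 as higher (*Gbp2*) and arrayWeights 2 as lower at PN98, where 7.54% and 28.8% of all genes were called. Leaving out single mice gave 0 to 1 as higher, the 1 being *Trim25* without m35. Of all genes, 377 were higher and 469 lower at PN98. The counts were 746 higher with median of ratios scaling, 571 higher and 259 lower when mice were scaled to nuclear genes, 1150 and 3490 with arrayWeights, 151 and 133 with the transcript of lowest p, 2040 lower without m145 and m35, and, leaving out single mice, 100 to 680 higher and 110 to 2853 lower. The cause was not tested. The difference in mean level of the type I targets was −0.71 with the transcript of lowest p, on the scale without a pseudocount. At that setting their median log2 fold change was −0.36, and that of all genes was −0.35. The mean included *Isg20* at −8.45, through a transcript with values down to 0.000284 FPKM at PN98. The log2 fold change of *Oasl2* was 0.0014 with median of ratios scaling, 0.056 when scaled to nuclear genes, 0.070 with arrayWeights and between −0.38 and 0.068 without single mice. Without single mice, the median of the type I targets ranged from −0.35 to 0.02 and that of the interferon-gamma targets from −0.20 to 0.13. No paired analysis was possible because the mice carry numbers that are not shared between the ages. Depth is unknown.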
